A study of Mus musculus with 4 samples.

Results

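The 35 genes described here are neutrophil genes, sorted by the stage of neutrophil maturation at which they are known to be transcribed. They were chosen by gene symbol, and all 35 were found among the 49993 genes with a count in the deposited tables. The progenitor and primary granule list held 8 genes, the secondary and tertiary granule list 14 and the mature neutrophil list 13. RNA was sequenced from CD11b+ microglia, the resident macrophages of the brain, which were isolated by magnetic-activated cell sorting from mouse brain at an age of 10 months. All animals were APP/PS1+, that is, they carried transgenes that drive amyloid deposition and serve as a model of Alzheimer's disease. The AD libraries (n = 2) came from asrij+/+ mice, and the AD/KO libraries (n = 2) from asrij-/- mice, in which asrij (Ociad1) was deleted constitutively and not in microglia alone. The labels do not say how many animals went into a library or whether the libraries came from separate animals, so that spread between libraries may be technical.

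Neutrophils are made in the bone marrow and fill their granules in a fixed order. Promyelocytes make the proteases and myeloperoxidase of the primary granules, myelocytes and metamyelocytes then make the antimicrobial proteins of the secondary and tertiary granules, and mature cells have shut down the early granule genes and express the receptors for chemokines, formyl peptides and the growth factor G-CSF. CD11b, the target of the sorting beads, is a chain of an integrin that neutrophils and monocytes carry as well as microglia. In bulk RNA, fewer cells of a type and less RNA per cell cannot be told apart.

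The libraries held from 13102622 to 19810076 counts. Homeostatic microglia genes were abundant in each, with P2ry12 between 348 and 1337 CPM (counts per 1e6, with library sizes scaled by edgeR's TMM method). Where 4 values follow one another, they stand in the order AD replicates 1 and 2, then AD/KO replicates 1 and 2. Ociad1, the deleted gene, was read 691, 1032, 746 and 592 times. Its transcript was thus not lost, and AD and AD/KO stand below for the libraries so labelled. Summed marker levels of neurons, astrocytes, oligodendrocytes and vascular cells were highest in AD/KO replicate 2. There the summed level of 8 neuron markers was 5650 CPM, against 432 CPM in AD replicate 1. This holds for the sums and not for every marker. Xist, the RNA that coats the silenced X chromosome in female cells, reached 1391 reads in AD replicate 2, against 3 to 15 elsewhere. AD replicate 2 therefore stood apart from AD replicate 1 before any neutrophil gene was considered.

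Reads of all 3 stages were present in every library, and AD replicate 2 had the most of each stage. Leaving aside Csf3r, described last, the members took 0.631% of its reads (95% exact binomial interval 0.628% to 0.635%). The share was 0.0541% (0.0529% to 0.0554%) in the other AD library. The AD/KO libraries had 0.0644% (0.0633% to 0.0656%) and 0.0706% (0.0695% to 0.0718%). Intervals here and below cover counting error only. A gene was taken to mark a library when its CPM there was at least 2 times the highest of the other 3 libraries, with at least 10 reads. By this description, 8 of 8 progenitor and primary granule genes, 14 of 14 secondary and tertiary granule genes and 12 of 13 mature neutrophil genes marked AD replicate 2. Among all 21439 genes tested, 1.96% marked that library. Elane, Prtn3, Ctsg, Ms4a3 and Gfi1 did not pass the filter on low counts, so that this share does not cover genes like them. No member marked the other AD library or either AD/KO library, which were marked by 1.36%, 0.294% and 12.4% of the genes tested. With the libraries scaled to 15 homeostatic microglia genes, the members marking AD replicate 2 were 8, 12 and 7 of the 3 stages.

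**Figure D1:**
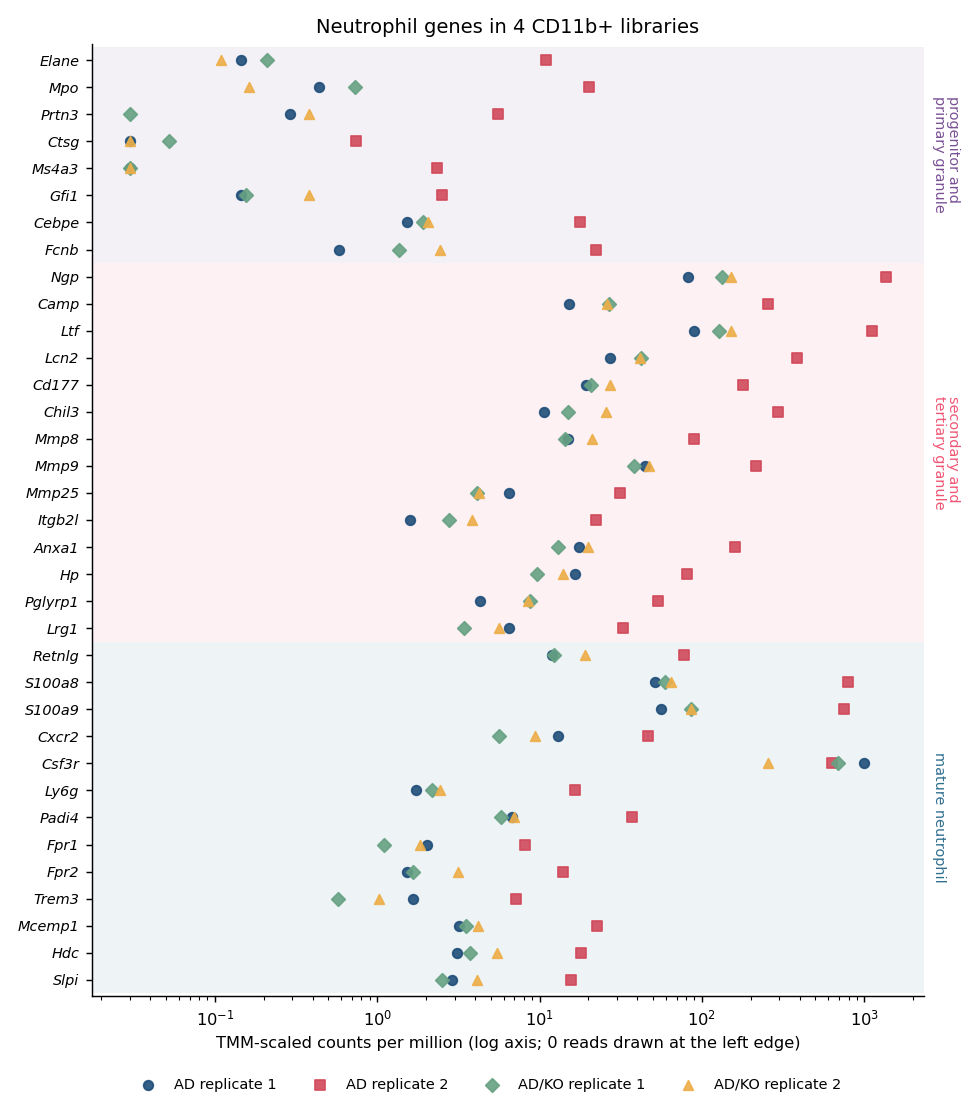
Level of each of the 35 neutrophil genes in the 4 libraries, in TMM-scaled CPM on a log axis, grouped by stage; a gene with 0 reads is drawn at the left edge. AD replicate 2 (squares) is the highest library for every gene other than Csf3r, and the other 3 libraries lie close together for most genes of the later stages.

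The choice of the members did not use their promoters. RefSeq promoter windows on GRCm38.p6 were found for 31 of the 35 genes, and the 250 bases before the transcript start that the table uses were searched on both strands. The motif TTGCNNAA, bound by the C/EBP factors that drive granulocyte differentiation, was present for 11 of 31 genes (35.5%), against 10.8% of all 27025 genes in the table. By stage these were 2 of 7 progenitor, 5 of 12 secondary and tertiary granule and 4 of 12 mature genes. GAGGAA, the core of the motif of the myeloid factor PU.1, was present for 17 of 31 (54.8%), against 25.9% of all genes. TGTGGT, the RUNX motif, was present for 3 of 31 (9.68%), against 15.9%. No motif was found in all members, and the differences in share were not tested. The 3 motifs as spelled do not contain one another. A match describes the letters and shows no binding. The windows below are those of the gene with the most reads in AD replicate 2 among the genes of each stage that held TTGCNNAA, followed by Csf3r, the 1 member with another pattern. Capitals mark TTGCNNAA on either strand in the first 3 and GAGGAA in Csf3r.
Fcnb (chr2:28084879-28085128, minus strand): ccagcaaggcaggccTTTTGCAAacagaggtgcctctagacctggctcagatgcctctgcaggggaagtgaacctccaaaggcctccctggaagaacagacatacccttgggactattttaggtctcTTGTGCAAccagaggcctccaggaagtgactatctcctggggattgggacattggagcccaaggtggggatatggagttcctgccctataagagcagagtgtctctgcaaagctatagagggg
Ngp (chr9:110419558-110419807, plus strand): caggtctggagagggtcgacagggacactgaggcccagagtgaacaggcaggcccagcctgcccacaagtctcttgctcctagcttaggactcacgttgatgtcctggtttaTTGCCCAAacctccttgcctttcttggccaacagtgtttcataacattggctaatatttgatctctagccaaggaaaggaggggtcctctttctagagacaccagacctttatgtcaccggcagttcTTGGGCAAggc
S100a9 (chr3:90695722-90695971, minus strand): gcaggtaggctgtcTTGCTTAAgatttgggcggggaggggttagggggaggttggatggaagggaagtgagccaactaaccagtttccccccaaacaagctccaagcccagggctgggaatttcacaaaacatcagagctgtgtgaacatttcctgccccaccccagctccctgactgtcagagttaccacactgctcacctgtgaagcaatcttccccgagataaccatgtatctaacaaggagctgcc
Csf3r (chr4:126024409-126024658, plus strand): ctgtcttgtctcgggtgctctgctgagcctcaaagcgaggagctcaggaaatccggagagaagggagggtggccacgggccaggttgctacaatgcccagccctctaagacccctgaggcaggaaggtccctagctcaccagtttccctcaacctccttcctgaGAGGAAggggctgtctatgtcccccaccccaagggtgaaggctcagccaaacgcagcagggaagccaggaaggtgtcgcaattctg
The starts used for Fcnb and Csf3r lie inside the outer bounds of these genes, so that the last bases of the Fcnb window and all of the Csf3r window lie within the annotated gene. Fcnb and Ngp each held 2 matches to TTGCNNAA, and S100a9 held 1. In Ngp, 1 of the 2 began at position −11, counted from the start. Csf3r held no TTGCNNAA in this window and 1 GAGGAA, at position −86.

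Of the progenitor and primary granule genes, Elane, Prtn3, Ctsg, Ms4a3 and Gfi1 had at most 7 reads in any library other than AD replicate 2. Elane, neutrophil elastase (chromosome 10, 79886312 to 79888216, protein-coding), had 2, 179, 4 and 2 reads. AD replicate 2 was thus 52.8 times (interval 20.3 to 196) the highest other library. Mpo, the myeloperoxidase that makes hypochlorous acid (chromosome 11, 87793784 to 87804412), had 6, 329, 14 and 3 reads, a ratio of 27.7 (16.3 to 51.2). Its exons overlap Gm11505 on the other strand. Prtn3, proteinase 3, had 4, 90, 0 and 7 reads, with part of its exons shared with Plppr3 on the other strand. Each of these primary granule enzymes was high in the same single library, and the groups overlapped because AD replicate 1 was as low as the AD/KO libraries.

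Ctsg, cathepsin G, had 0, 12, 1 and 0 reads, so that its ratio of 14.1 had an interval from 2.09 to 605. Ms4a3, a membrane protein of granulocyte and monocyte progenitors, had 38 reads in AD replicate 2 and 0 in the other 3 libraries. Its level there was at least 10.7-fold higher, with the smallest of the other libraries taken at a floor of 3 reads. Gfi1, a repressor required for neutrophil differentiation, had 2, 41, 3 and 7 reads, and its exons overlap A430072P03Rik on the other strand. All 3 were thus seen above the floor chiefly in AD replicate 2, and at these depths a level under 3 reads in the other libraries cannot be told from none.

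Cebpe and Fcnb belong to the transition towards secondary granules. Cebpe, the factor that switches on the secondary granule genes, had 21, 287, 37 and 38 reads, a ratio of 8.55 (6.08 to 12.3). Fcnb, a ficolin that recognises microbial sugars and whose promoter is shown above, had 8, 363, 26 and 45 reads, a ratio of 9.14 (6.69 to 12.7). These were the members of the list with the most reads outside AD replicate 2, where both were lowest in AD replicate 1.

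Of the secondary and tertiary granule genes, Ngp, neutrophilic granule protein (chromosome 9, 110419808 to 110423012), had the highest level per kilobase of exon. It had 1129, 22179, 2564 and 2772 reads, which are 81.9, 1363, 134 and 150 CPM. Ltf, the iron-binding lactoferrin, stood at 89.8, 1119, 128 and 150 CPM. Camp, the precursor of the antimicrobial peptide cathelicidin, stood at 15.2, 257, 26.6 and 26.2 CPM. In all 3, AD replicate 2 was between 7.44 and 9.64 times the highest other library, and AD replicate 1 was the lowest of the 4. The AD/KO libraries thus lay between the 2 AD libraries.

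Lcn2, a lipocalin that withholds iron from bacteria, stood at 27.1, 386, 42.2 and 41.8 CPM, and Pglyrp1, which binds bacterial peptidoglycan, at 4.28, 53.4, 8.71 and 8.47 CPM. Chil3, a chitinase-like protein that macrophages can also make, had the largest ratio of the list, 11.4 (10.4 to 12.6), with 146, 4778, 289 and 473 reads. Itgb2l, a relative of the integrin beta 2 chain, had 22, 364, 53 and 71 reads. Cd177, a surface glycoprotein of granules and plasma membrane, had 265, 2906, 397 and 502. As for Ngp, AD replicate 1 was the lowest library for all 5.

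In the 6 remaining genes of the list AD replicate 1 was no longer the lowest library. Mmp8, the neutrophil collagenase, had 207, 1462, 275 and 387 reads and a ratio of 4.28 (3.82 to 4.80), the lowest of the list. Mmp9, gelatinase B, stood at 44.9, 217, 38.2 and 47.2 CPM, a ratio of 4.59 (4.26 to 4.95), so that AD replicate 1 lay between the AD/KO libraries. Mmp25, a membrane-anchored metalloprotease, stood at 6.46, 31.4, 4.12 and 4.23 CPM, with both AD/KO libraries below both AD libraries. The other genes whose groups did not overlap were Hp, haptoglobin, at 16.6, 80.8, 9.70 and 14.0 CPM, and Lrg1, a leucine-rich glycoprotein, at 6.46, 32.6, 3.44 and 5.64 CPM. Anxa1, the pro-resolving protein annexin A1, stood at 17.4, 160, 13.03 and 20.02 CPM, a ratio of 8.01 (7.18 to 8.96) against at most 5.04 for the other 5. Anxa1, Hp, Lrg1, Lcn2 and Chil3 are also made by other cells, including macrophages, astrocytes or endothelium.

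Among the mature neutrophil genes, S100a8 and S100a9, the subunits of calprotectin, had the highest levels per kilobase of exon beside Csf3r. S100a8 (chromosome 3, 90669071 to 90670034) had 708, 13008, 1143 and 1188 reads, a ratio of 12.4 (11.7 to 13.2). S100a9 had 770, 12211, 1636 and 1572 reads, a ratio of 8.80 (8.35 to 9.28). Both are transcribed from the myelocyte stage on, and their ratios were the highest of the mature list. The S100a8 reads per 100 reads of S100a9 were 91.9, 107, 69.9 and 75.6, higher in both AD libraries than in either AD/KO library.

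The surface receptors and late genes had ratios from 3.30 to 6.80, below those of calprotectin. Cxcr2, the chemokine receptor through which neutrophils leave the marrow (chromosome 1, 74153994 to 74161246), had 178, 761, 108 and 173 reads, or 12.9, 46.8, 5.63 and 9.39 CPM. AD replicate 2 was 3.62 times (3.07 to 4.29) the next library, AD replicate 1, and both AD/KO libraries lay lower. Retnlg, a resistin-like secreted protein, had 164, 1267, 234 and 352 reads, a ratio of 4.08 (3.62 to 4.60). Ly6g, the antigen that defines mouse neutrophils, had 24, 270, 42 and 45 reads, a ratio of 6.80 (4.94 to 9.54). Padi4, which citrullinates histones in extracellular traps, had 93, 600, 111 and 129 reads, a ratio of 5.27 (4.35 to 6.42).

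The formyl peptide receptors, which sense bacterial products, were low. Fpr1 had 28, 132, 21 and 34 reads and Fpr2 had 21, 228, 32 and 58, the latter sharing exons with Fpr3 and 95.7% of 1041 bases with Gm5966. Trem3, an activating receptor, had 23, 117, 11 and 19 reads, and Mcemp1, a membrane protein of myeloid cells, had 44, 368, 68 and 77. Hdc, the histidine decarboxylase that makes histamine, had 43, 294, 72 and 101 reads. Slpi, an inhibitor of elastase, had 40, 256, 48 and 76. In these 6 genes AD replicate 2 was from 3.30 times (Hdc) to 5.41 times (Mcemp1) the next library.

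The median excess in AD replicate 2 differed by stage. The median ratio to the highest other library was 12.4 over the 8 progenitor genes, with Ms4a3 at its bound. It was 6.34 over the 14 secondary and tertiary granule genes and 4.31 over the 13 mature genes (4.38 without Csf3r). The stages overlapped, since Gfi1 stood at 6.63 and S100a8 at 12.4. The progenitor median lies between Ctsg, with at most 1 read in any other library, and the bound of Ms4a3. The 3 progenitor genes that passed the filter on low counts stood at 27.7 (Mpo), 9.14 (Fcnb) and 8.55 (Cebpe), the latter pair level with Ngp at 9.06, Lcn2 at 9.15 and Camp at 9.64. For all 13769 genes with a mean of at least 5 CPM, the median was 0.747. Under scaling to the homeostatic list the medians were 6.02, 2.91 and 2.08 in the same order of stages, and with DESeq2 size factors 12.2, 6.02 and 4.17. With 1 library on one side, the order of the stages has no replicate and was not tested.

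**Figure D2:**
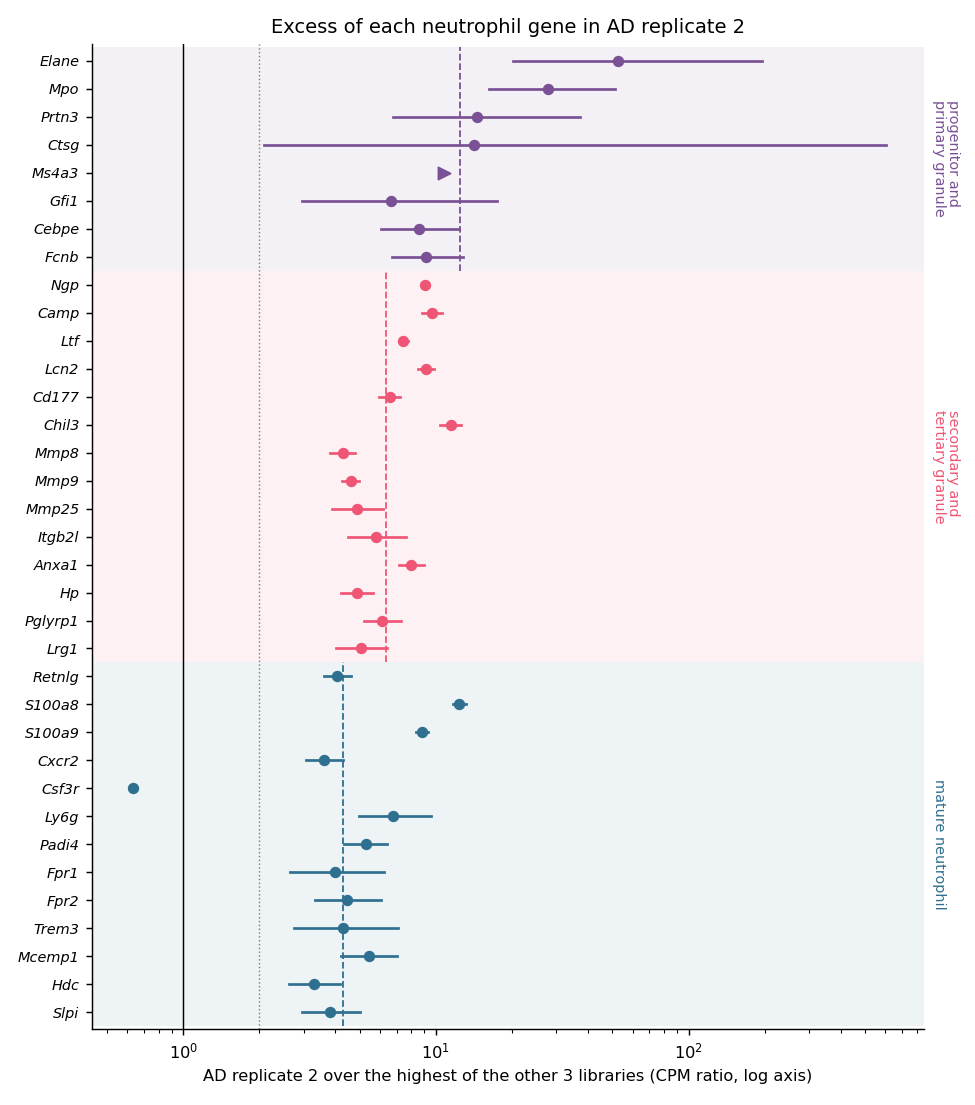
Ratio of the level in AD replicate 2 to the highest of the other 3 libraries for each member, on a log axis, with 95% exact intervals for counting error; the arrow is the lower bound for Ms4a3, dashed lines are stage medians and the dotted line marks a ratio of 2. The medians step down from 12.4 to 6.34 to 4.31 from the progenitor to the mature stage, and Csf3r alone lies below 1.

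The make-up of the neutrophil signal was compared within each library. Levels were added per kilobase of exon so that genes of different length could be combined. Over all 35 members, the mature stage held 73.0%, 54.6%, 65.3% and 56.3% of the sum, a range that narrowed without Csf3r. In that case, an alternative chosen after the values were seen, the mature stage held 54.4%, 53.1%, 52.8% and 51.1%, and the secondary and tertiary granule stage 45.02%, 45.9%, 46.6% and 48.2%. These sums were carried by few genes, since S100a8 and S100a9 held 83.0%, 91.9%, 88.1% and 83.3% of the mature sum without Csf3r. The mature share therefore says little of the receptors and other late genes. Which of the later stages was larger depended on the unit. In member reads without Csf3r the mature stage held 30.1%, 29.3%, 28.3% and 27.3%. The secondary and tertiary granule stage held 69.3%, 69.3%, 71.0% and 71.9%. Without Csf3r the members had 7091, 100569, 12439 and 13990 reads.

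The progenitor stage, without Csf3r, held 1.33% of member reads in AD replicate 2 (interval 1.26% to 1.40%). It held 0.606% (0.439% to 0.816%) in the other AD library, and 0.683% (0.546% to 0.844%) and 0.729% (0.595% to 0.884%) in the AD/KO libraries. The interval of AD replicate 2 overlapped none of the others. Elane, Mpo, Fcnb and Cebpe were set against Ngp, and the other genes of the list were not. Elane stood at 0.807 reads per 100 reads of Ngp in AD replicate 2 (0.693 to 0.935) and at 0.177, 0.156 and 0.0722 in the others. Mpo per 100 reads of Ngp was likewise highest there, at 1.48 (1.33 to 1.65) against 0.531, 0.546 and 0.108. Fcnb, at 1.64 in AD replicate 2, was as high in AD/KO replicate 2, at 1.62. Cebpe per 100 reads of Ngp was 1.86, 1.29, 1.44 and 1.37, with overlapping intervals. Relative to Ngp, Elane and Mpo were thus higher in AD replicate 2, while for Cebpe no difference was detectable at this depth. This does not extend to the whole list. Prtn3 in AD replicate 2 was 14.6 times (6.79 to 37.3) its level in AD/KO replicate 2, the highest other library. For Gfi1 this ratio was 6.63 (2.95 to 17.5). Both intervals include the 9.06 of Ngp over the same library.

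**Figure D3:**
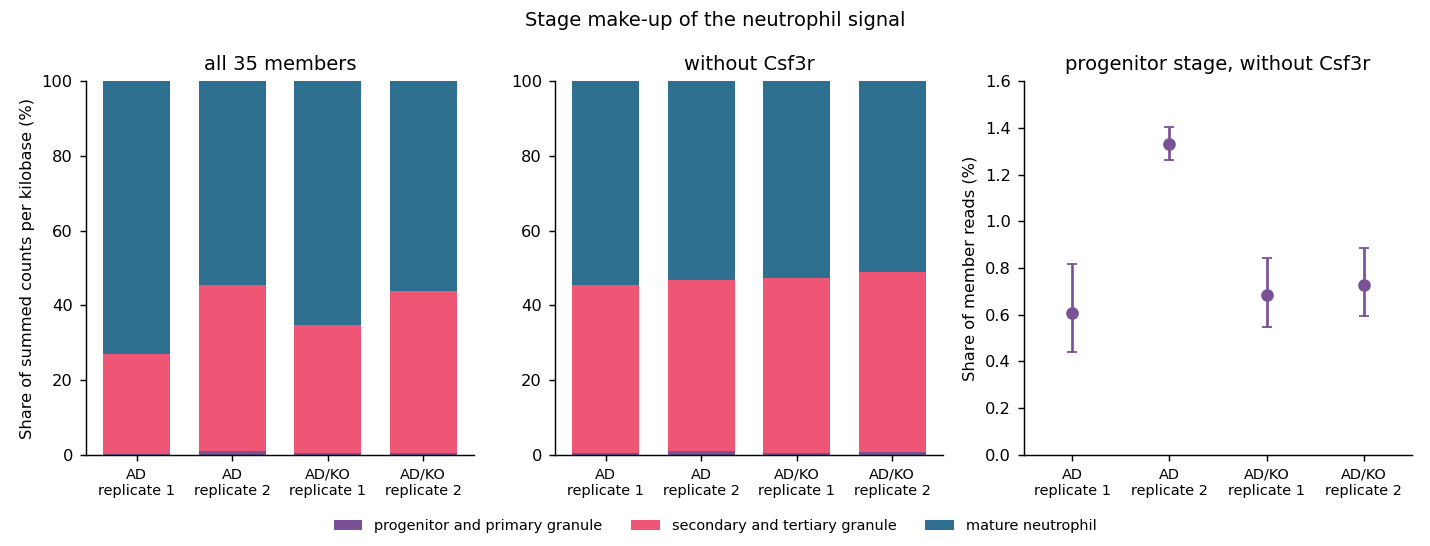
Stage make-up of the neutrophil signal in each library. The stacked bars give the share of summed counts per kilobase with all 35 members (left) and without Csf3r (middle). The points give the progenitor stage's share of member reads without Csf3r, with 95% exact binomial intervals (right). Per kilobase without Csf3r, the mature stage lies between 51.1% and 54.4% in every library. In reads without Csf3r, the progenitor share is 1.33% in AD replicate 2 and at most 0.729% elsewhere.

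Ratios between granule and late transcripts put the libraries in the same order with Cxcr2 or Retnlg as the late gene. Which intervals overlapped differed between these genes. Ngp reads per 100 reads of Cxcr2 were 634 (541 to 747) and 2914 (2711 to 3137) for AD, and 2374 (1958 to 2906) and 1602 (1374 to 1879) for AD/KO. Camp per 100 reads of Cxcr2 gave the same order, at 117, 549, 473 and 279. These ratios do not depend on the scaling of the libraries. AD replicate 1 thus had the fewest reads of these secondary granule genes for each Cxcr2 read. AD replicate 2 had the most, although its intervals overlapped those of AD/KO replicate 1. Stretches of 170 to 211 bases of the Cxcr2 transcript match 81 other genes at 95% identity or more, so that its counts are uncertain. With Retnlg the ratio was taken the other way round, late over granule, so that a low value means more Ngp reads for each Retnlg read. Retnlg per 100 reads of Ngp was 14.5 (12.3 to 17.1) and 5.71 (5.39 to 6.05) for AD. For AD/KO it was 9.13 (7.95 to 10.4) and 12.7 (11.3 to 14.2). AD replicate 2 again had the most Ngp, here with an interval that overlapped no other, and AD replicate 1 again had the least. There the interval of AD replicate 1 overlapped that of AD/KO replicate 2.

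Csf3r, the receptor of G-CSF (chromosome 4, 126023441 to 126044975), had 13721, 10233, 13309 and 4721 reads, or 996, 629, 694 and 256 CPM. It was the only member that was not highest in AD replicate 2. Beside Csf1r, the receptor that maintains microglia, it had 18.7, 19.8, 12.5 and 15.2 reads per 100 reads of Csf1r. Its per-kilobase level exceeded that of every other member in AD replicate 1 and AD/KO replicate 1, whereas it ranked 7 of 35 in AD replicate 2. In these libraries its reads therefore did not mark the neutrophil signal. The Csf3r transcript matches the annotated gene AC105061.2 at 96.8% identity over 1518 bases and was 1 of 43 genes matched at 95% identity or more.

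The study's comparison asked how the AD/KO libraries differ from the AD libraries. For 30 of the 35 members it could be tested, since Elane, Prtn3, Ctsg, Ms4a3 and Gfi1 were read in too few libraries to pass the filter on low counts. With Benjamini-Hochberg adjustment, edgeR's quasi-likelihood test called 0 of the 30, and 0% of all 21439 genes tested. The unadjusted p was under 0.05 for 3 members (Mmp25, Cxcr2 and Trem3), where 5% of all genes lay, and DESeq2 called 2 (Mpo and Elane) against 0.462% of its genes. The log2 fold change was below 0 for all 30 members tested, against 52.8% of all genes. Its median was −2.59 over 3 progenitor genes, −2.11 over 14 secondary and tertiary granule genes and −1.77 over 13 mature genes, against −0.05 over all genes.

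These values rested on AD replicate 2. Ngp averaged 723 ± 906 CPM (SD, n = 2) over the AD libraries, against 142 ± 11.8 CPM (SD, n = 2). The log2 fold change was −2.35 (SE 1.26, adjusted p = 0.680 by edgeR's quasi-likelihood test). S100a8 averaged 425 ± 529 CPM and 62.0 ± 3.45 CPM (SD, n = 2 each), with a log2 fold change of −2.78 (SE 1.25). In both genes the SD in AD exceeded the mean. Of the 30 members tested, 6 (Mmp25, Hp, Lrg1, Cxcr2, Fpr1 and Trem3) had both AD/KO libraries below both AD libraries. This is near the share among all genes tested, 21.7%.

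Without AD replicate 2 the direction turned for most members. The median log2 fold change was then 0.45 for the progenitor, 0.54 for the secondary and tertiary granule and 0.33 for the mature list. Over all genes in that fit it was 0.06, so that genes at large also lay above 0 more often than below. Of the 30 members, 20 were above 0, and the share of all genes above 0 was not computed. By edgeR's quasi-likelihood test 0 of the 30 passed the threshold, with 2.28% of all genes passing. Of all 35 members, 18 lay higher in both AD/KO libraries than in AD replicate 1 and 7 lay lower in both. Among those tested these were 17 and 7 of 30, where 41.3% and 42.8% of all genes tested lay higher and lower. The 18 included Ngp, Camp, Ltf, Lcn2, Chil3 and Ly6g. The 7 were Mmp25, Hp, Lrg1, Cxcr2, Csf3r, Fpr1 and Trem3. With scaling to the homeostatic list, 20 of all 35 lay higher and 1 lower, against 52.2% and 11.5% of all genes tested. The 35 include members that did not pass the filter on low counts, which these shares do not cover. For Ngp the log2 fold change was 0.86 without AD replicate 2, and for Fcnb 1.76, the largest of the members.

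**Figure D4:**
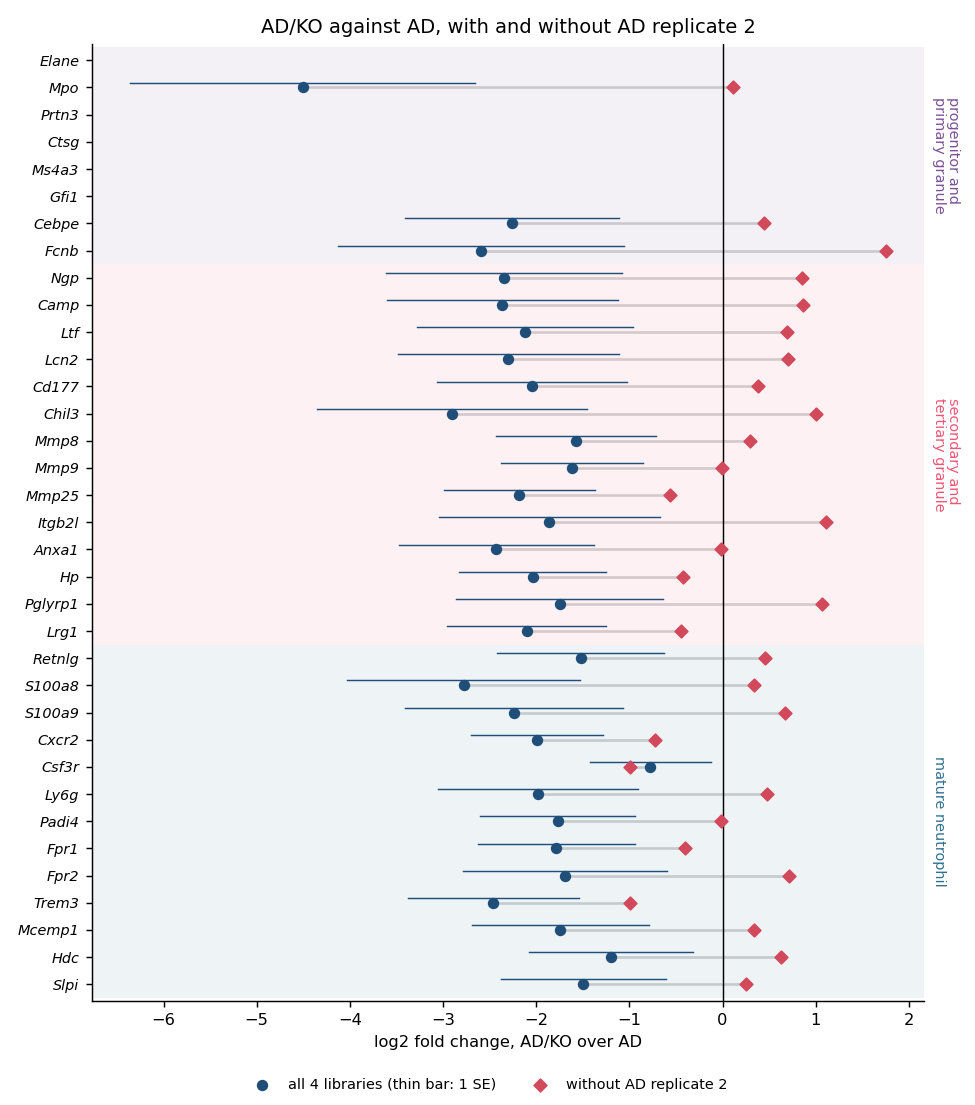
Log2 fold change of AD/KO over AD for the 30 members tested, from all 4 libraries (circles, with thin bars of 1 SE above them) and without AD replicate 2 (diamonds); the 5 members with no point did not pass the filter on low counts. All circles lie left of 0, and 20 of the 30 diamonds lie right of it. Without AD replicate 2 the median over all genes was 0.06.

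Other genes known from neutrophils followed the members in part. Of all genes tested, 1.96% marked AD replicate 2. Of 29 further neutrophil genes in the files, 18 marked AD replicate 2, among them Wfdc21, a secreted protein of the whey acidic protein family, with 26, 336, 38 and 34 reads, and Ifitm6 with 75, 726, 70 and 75. The 3 with the highest mean level, Ncf1 (a subunit of the NADPH oxidase), Ptafr (the receptor of platelet-activating factor) and Alox5ap (which serves leukotriene synthesis), did not mark it. Ncf1 stood at 331, 300.1, 318 and 114 CPM, in the same order as P2ry12. For 12 of the 23 tested, the AD/KO libraries were both below the lower AD library, against 21.7% of all genes tested. Without AD replicate 2, 2 of the 23 lay higher in both AD/KO libraries than in AD replicate 1, and 14 lay lower. Among all genes tested these shares were 41.3% and 42.8%, and among the 30 members tested the counts were 17 and 7. By edgeR's quasi-likelihood test, 0 of the 23 passed in either direction. There were 3 at an unadjusted p under 0.05, where 5% of all genes tested lay, and 0 called by DESeq2. Of the 5 other genes with the largest excess in AD replicate 2, those outside the lists were Xist, H1f5, a replication-dependent linker histone, with 16, 458, 44 and 50 reads, and Dnah8, an axonemal dynein heavy chain, with 31, 354, 49 and 46.

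The main ligands that recruit neutrophils were barely read. Genes named from here on for marking AD replicate 2 or defining a cell type were chosen after their values were seen. Cxcl1 had 0 reads in each library, which allows up to 3, and Cxcl2 and Csf3, the ligand of Csf3r, had at most 4. Of all genes tested, 1.96% marked AD replicate 2. Of the 22 recruitment and adhesion genes, 7 marked it, among them Cxcr4, the receptor that retains neutrophils in the marrow, with 79, 381, 81 and 137 reads. Itgam, which encodes CD11b itself, stood at 1313, 848, 1012 and 374 CPM and did not mark it. By edgeR's quasi-likelihood test, 0 of the 12 genes tested passed. There were 3 at an unadjusted p under 0.05, where 5% of all genes tested lay, and 0 called by DESeq2.

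Markers of other blood and marrow cells moved with the neutrophil signal to different extents. Of all genes tested, 1.96% marked AD replicate 2, and 21.7% had both AD/KO libraries below both AD libraries. By edgeR's quasi-likelihood test 5% had an unadjusted p under 0.05, and DESeq2 called 0.462% of its genes. Of 12 proliferation genes, 8 marked AD replicate 2, with Mki67 at 45.6, 145, 12.6 and 10.3 CPM, and the list summed to 348 CPM there against 54.7 to 144 CPM elsewhere. For 10 of the 12, the AD/KO libraries were both below the lower AD library, and 0 passed edgeR's quasi-likelihood test, with 6 at an unadjusted p under 0.05 and 2 called by DESeq2. Of 10 early progenitor genes, 1 did (Myb, with 16, 97, 21 and 24 reads). Of 10 monocyte genes, 2 did (Ly6c2 and Chil3, the latter also a member), and Ccr2, the defining monocyte receptor, did not, at 39.8, 40.0, 10.3 and 6.13 CPM. For 7 of the 10 the AD/KO libraries were both below the lower AD library, and 0 passed edgeR's quasi-likelihood test, with 7 at an unadjusted p under 0.05 and 1 called by DESeq2. Of 11 mast cell, basophil and eosinophil genes, 2 marked it, the eosinophil granule genes Prg2 (14, 163, 5 and 3 reads) and Epx (9, 57, 13 and 15 reads), and 6 had at most 3 reads in every library. The list summed to 27.1, 35.1, 20.2 and 5.81 CPM. Of 14 B cell genes, 1 marked it (Dntt), with Ighm and Ighd at 0 reads. Of 10 T and NK cell genes, 2 did (Cd3d and Nkg7), with Cd3e at no more than 2 reads in any library. Hemoglobin genes were high in AD replicate 2 and AD/KO replicate 2 alike, with Hba-a1 at 224, 536, 152 and 602 CPM, so that they did not follow the neutrophil genes. The part of any of these cells in the neutrophil values was not tested, nor was that of the difference in Xist.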

How the data were processed

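Total RNA of CD11b+ brain cells was extracted with TRIzol, depleted of ribosomal RNA and made into stranded libraries, per the labels' protocols. The deposited values are raw read counts per gene, 1 table for each of the 4 libraries. The submitters' processing notes name FastQC, HISAT2, SAMtools, featureCounts, Subread, DESeq2 1.30.0 and the build mm10. Whether counting used strand is not given in the sources used here, so reads of overlapping genes on opposite strands may be mixed. Each table held 11 broken lines, and 4 genes without a count were not analysed here.

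Genes were tested with edgeR 4.0.16 (R 4.3.3; filterByExpr with min.count 10 and min.total.count 15, TMM scaling, quasi-likelihood test, two-sided, Benjamini-Hochberg adjusted p under 0.05) over all genes and 4 libraries. CPM are counts per 1e6 of the TMM-scaled library. DESeq2 1.42.0 was an alternative. The fit was tested on simulated data. Similar transcripts were searched with BLAST 2.17.0 (at least 95% identity over 100 bases). Members, stage lists and marker lists were chosen with earlier results of these data known. All members are named. Of other genes, the 3 with the highest mean CPM of a list and the 5 with the largest excess in AD replicate 2 (mean of at least 5 CPM) could be named, and exceptions are stated. Gene coordinates and types are on GRCm38. Binomial intervals are 95% exact, and a count of 0 allows up to 3 reads.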

Additional observations from a re-analysis of the deposited data

How the results depend on the processing

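With 2 libraries a group, the direction of the comparison depended on AD replicate 2. Each stage median below covers the members that passed the filter on low counts in that fit. The progenitor genes that passed differed between fits, and the median of −4.85 was the value of Prtn3, which did not pass with all 4 libraries. Leaving out each library in turn, with the lone sample of a group assumed to vary like the other group, the number of genes called ranged from 0 to 524, and the stage medians ranged from −4.85 to 0.45 (progenitor), −2.92 to 0.54 (secondary and tertiary granule) and −2.56 to 0.33 (mature). Without AD replicate 1, 11 members were called lower, among 0.208% of all genes. The sign turned in 20 members, with ranges of −5.87 to 0.11 for Mpo, −3.15 to 0.45 for Cebpe, −3.57 to 1.76 for Fcnb, −3.28 to 0.86 for Ngp, −3.29 to 0.86 for Camp, −3.02 to 0.69 for Ltf, −3.21 to 0.70 for Lcn2, −2.91 to 0.38 for Cd177, −3.87 to 1.002 for Chil3, −2.36 to 0.29 for Mmp8, −2.77 to 1.11 for Itgb2l, −2.65 to 1.07 for Pglyrp1, −2.33 to 0.45 for Retnlg, −3.70 to 0.33 for S100a8, −3.15 to 0.67 for S100a9, −2.85 to 0.47 for Ly6g, −2.56 to 0.72 for Fpr2, −2.56 to 0.34 for Mcemp1, −1.98 to 0.62 for Hdc and −2.26 to 0.25 for Slpi. The cause was not tested beyond the loss of that library. DESeq2 called 91 genes. The labels give both groups replicates 1 and 2 without saying that a number marks a shared source. Deviations from the group mean correlated at 0.72 between same-numbered libraries. With 2 libraries a group both pairs give this same value, so that it cannot show whether a source was shared. With the replicate block, 4333 genes were called (20.2%), among them 5 members, all lower: Mmp25, Hp, Lrg1, Cxcr2 and Trem3. With scaling to the homeostatic list, which moved the median of all genes from −0.05 to 0.78, the member median was −1.24, and 7 mature genes marked AD replicate 2. Stage shares moved with the unit. In read counts the progenitor, secondary and mature shares were 0.207%, 23.6% and 76.2% in AD replicate 1 and 1.21%, 62.9% and 35.9% in AD replicate 2, the progenitor share was 0.330% in AD/KO replicate 1, and the later stages held 53.8% and 45.7% in AD/KO replicate 2. With stricter stage lists they were 0.0770%, 22.4% and 77.5%, 0.462%, 39.8% and 59.7%, 0.0769%, 30.7% and 69.2%, and 0.0810%, 38.8% and 61.1% in the AD libraries 1 and 2 and the AD/KO libraries 1 and 2. Per kilobase without Csf3r they were 0.537%, 45.02% and 54.4%, and 1.02%, 45.9% and 53.1%, in the AD libraries. In the AD/KO libraries they were 0.577%, 46.6% and 52.8%, and 0.661%, 48.2% and 51.1%. Depth limits Elane, Prtn3, Ctsg, Ms4a3 and Gfi1, with at most 7 reads in any library but AD replicate 2.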
